A study of Mus musculus with 6 samples.

Results

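Fatty acid uptake, lipolysis and beta-oxidation were described through 33 genes, taken by symbol from the 14617 genes that the authors' deposited table lists. All 33 were listed. The set was put together with earlier results of these data known. The muscle came from PRMT7-/- mice (KO) and PRMT7+/+ mice (WT), all of the C57BL/6 strain and 8 months old, and the labels name 3 mice of each genotype. The tissue was the tibialis anterior, a fast muscle of the lower hind limb, and RNA sequencing compared the genotypes. Prmt7 encodes an arginine methyltransferase. The labels give neither the construction of the null allele nor the sex of the mice.

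Muscle fibres take up long-chain fatty acids through membrane proteins such as CD36 and carry them in the cytosol on FABP3. Acyl-CoA synthetases activate the acids, and the carnitine shuttle moves the acyl groups into the mitochondrion. There, beta-oxidation shortens each acyl-CoA in repeated cycles of dehydrogenation, hydration, a second dehydrogenation and thiolysis, with different enzymes for long and for shorter chains. Electrons from the acyl-CoA dehydrogenases pass through the electron transfer flavoprotein to ubiquinone. Triglyceride inside the fibre is a further source of fatty acids, released by lipases at the lipid droplet.

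For each gene the deposited table gives 1 mean normalized read count per genotype, with the authors' log2 ratio, p-value and FDR. The headers do not say which mean belongs to which genotype. The table's name puts WT before KO, and the columns were assigned in that order, on which every direction below rests. The means resolved exactly into whole counts of 2 libraries per genotype, called here KO library 1 and 2 and WT library 1 and 2, which carry no mouse number. Library totals were 24814798 and 22849273 counts in KO and 23695468 and 22629288 counts in WT. Prmt7 itself had 706 and 718 normalized counts in KO libraries, against 885 and 844 in WT libraries (log2 ratio -0.28, FDR 0.587 in the authors' deposited table), so the targeted gene does not settle the assignment. Xist, expressed from the inactive X chromosome, had 2 and 1 counts in KO libraries and 10829 and 10858 counts in WT libraries. Ddx3y, a Y-linked gene, had 0 and 2738 counts in KO libraries and 0 in each WT library. The Xist difference follows the genotype exactly, whereas Ddx3y was present in KO library 2 only. KO library 1 held almost none of either RNA, so its sex is not settled. Genotype and the Xist difference, or any sex difference behind it, cannot be told apart in any result given here. The skeletal muscle fibre markers were all listed (10 of 10), with summed levels of 2803205 and 2992910 normalized counts in KO libraries and 2521154 and 2863612 in WT libraries. No liver marker was listed (0 of 4).

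Most genes of fatty acid oxidation were lower in KO muscle, among them all 4 of the long-chain steps. At the authors' FDR of 0.05, 19 of the 33 genes fell, none rose, and 14 did not pass. In the whole table, 1.7% of the genes fell and 1.01% rose at that FDR, and 4.98% of those with a mean of at least 1000 normalized counts fell. At an unadjusted p under 0.05, 27 of the 33 genes were lower and 0 higher, against 6.06% lower and 5.08% higher over all listed genes. The median log2 ratio of KO over WT was -0.65 over the 33 genes, against 0.01 over all listed genes and -0.06 over those with a mean of at least 1000. All 33 ratios were below 0, as were 49.1% of all listed ratios and 61.4% of those at a mean of at least 1000, although other scalings put Mgll above 0 (4 scalings) and Lpl at 0.00 (totals without the 20 most abundant genes) or above 0 (quantile normalization). Falls among the genes that passed ran from 1.43-fold in Hadh to 1.92-fold in Eci1. In 31 of the 33 genes each KO library had a lower value than each WT library, against 25.7% of all listed genes and 38.9% of those whose mean reached 1000. Mgll and Angptl4 were the exceptions. In bulk muscle, fewer cells of a type and less RNA per cell cannot be told apart.

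A limma fit on log2 of the normalized count plus 1, with 2 libraries per genotype and adjustment over 14053 genes, called 10 of the 33 genes lower and none higher. By that rule 0.463% of the genes fitted were lower and 0.427% higher. At an unadjusted p under 0.05, limma had 28 of the 33 genes lower and 0 higher. Of all 14053 genes, 1408 were lower and 1346 higher at that p. The 10 were Slc27a1, Cpt2, Acadvl, Acadl, Hadha, Acadm, Acaa2, Eci1, Etfdh and Hsdl2, with adjusted p between 0.0199 and 0.0497. The limma count was 11 without either KO library and 0 without either WT library, where 23 genes (without WT library 1) and 26 genes (without WT library 2) had an unadjusted p under 0.05. In these fits the genotype with 1 library is assumed to vary like the other, and the count of all genes called lower moved too. It was 65 with all libraries, 129 without KO library 1, 170 without KO library 2, 6 without WT library 1 and 44 without WT library 2. Across the 5 other scalings of the libraries limma called 3 to 8 of the 33 genes lower, and 38 to 62 of all genes. Labels do not say that the libraries came from separate mice, so these p-values measure only the spread between the libraries.

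**Figure D1:**
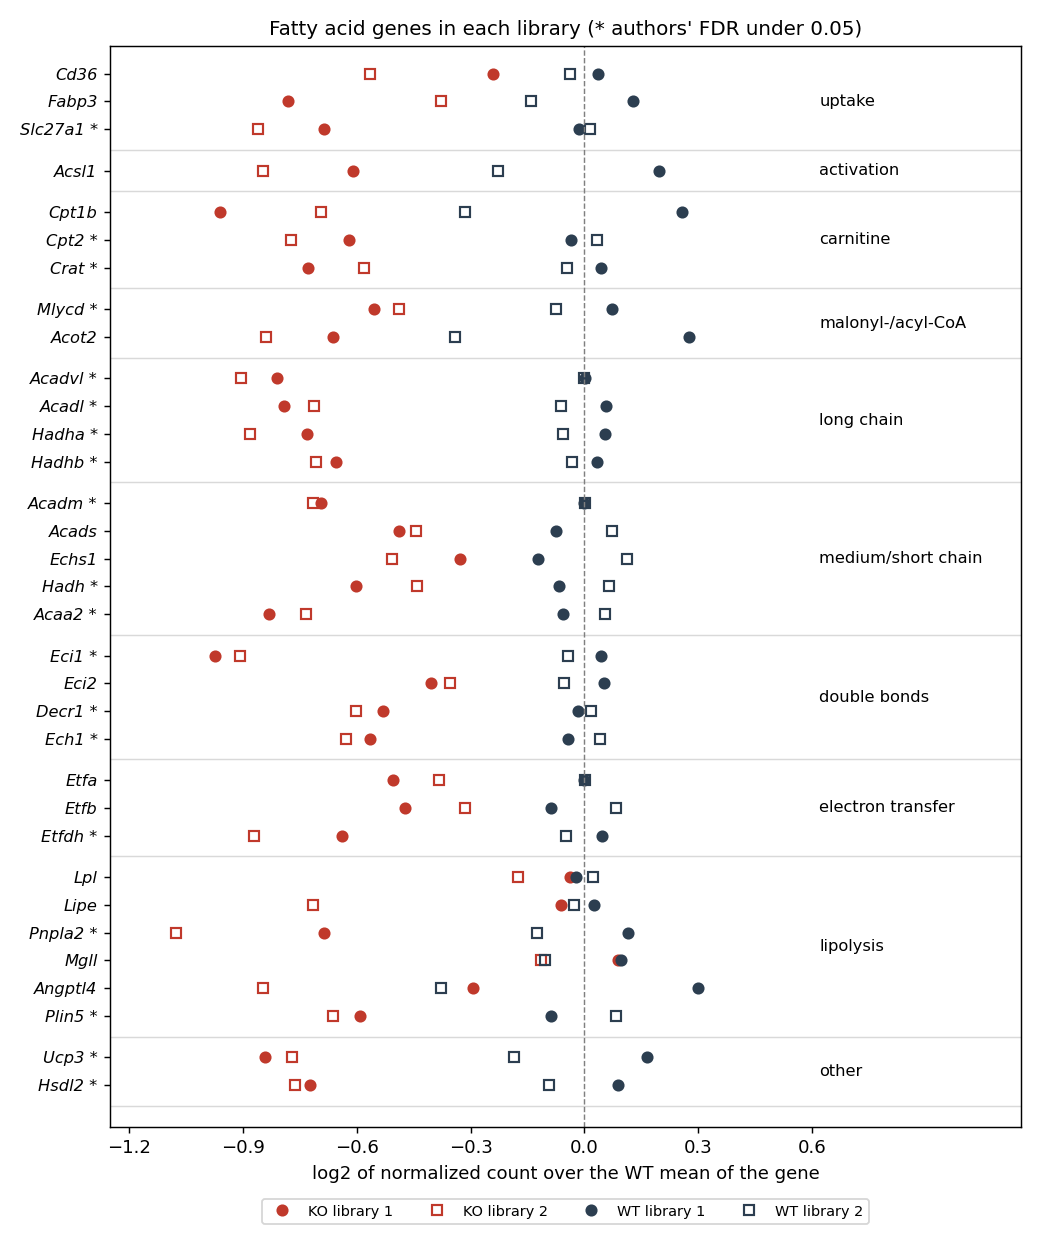
Each row is 1 gene and each point 1 library, placed by the log2 of its normalized count over the WT mean of that gene; red is KO, dark blue WT, circles are library 1 and squares library 2, and an asterisk marks the authors' FDR under 0.05. The KO points lie left of both WT points in 31 of 33 rows, and the exceptions, Mgll and Angptl4, are among the lipolysis genes.

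At the uptake step 1 of 3 genes fell. Slc27a1 (chr8:71568927-71586708), a fatty acid transport protein of the plasma membrane, had 1269 and 1124 normalized counts in KO libraries, against 2022 and 2063 in WT libraries. It fell 1.71-fold (log2 ratio -0.77, authors' FDR 0.000173), and the groups did not overlap. Cd36 (chr5:17781690-17888959), the main fatty acid translocase of muscle, had 14984 and 11967 normalized counts in KO libraries, against 18168 and 17253 in WT libraries. Its log2 ratio of -0.39 did not pass (FDR 0.173) and was -0.24 without KO library 2, although both KO values were the lower ones. Fabp3 (chr4:130308778-130315463), the cytosolic fatty acid carrier of heart and muscle, had 8146 and 10772 normalized counts in KO libraries and 15299 and 12712 in WT libraries. That difference did not pass either (log2 ratio -0.57, FDR 0.193). The ratio of library 1 to library 2 was 0.756 in KO and 1.2 in WT.

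Cd36 is also expressed by capillary endothelium. Of the 8 endothelial markers, all listed, Kdr fell (5150 and 4779 normalized counts in KO libraries, 7757 and 6792 in WT libraries, FDR 0.00782) and the other 7 did not pass. The summed endothelial level was 35634 and 34281 in KO libraries and 41825 and 40850 in WT libraries, with no marker at 0. The part of endothelial cells in the Cd36 value was not tested.

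Activation was represented by Acsl1 (chr8:46471042-46536050), the long-chain acyl-CoA synthetase of muscle. It had 7624 and 6468 normalized counts in KO libraries, against 13328 and 9947 in WT libraries. The log2 ratio of -0.72 was as low as that of several genes that passed, but the WT libraries differed from each other and the FDR was 0.181.

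Of the carnitine genes 2 of 3 fell. Cpt2 (chr4:107903982-107923589), the inner-membrane carnitine palmitoyltransferase that rebuilds acyl-CoA in the matrix, had 1631 and 1466 normalized counts in KO libraries, against 2449 and 2567 in WT libraries (1.62-fold lower, FDR 0.00088). Crat (chr2:30400476-30415748), the carnitine acetyltransferase that buffers mitochondrial acetyl-CoA, had 9501 and 10521 normalized counts in KO libraries and 16233 and 15234 in WT libraries (1.57-fold lower, FDR 0.000489). The carrier that exchanges acylcarnitine for carnitine across the inner membrane, Slc25a20, is not among the 33. It fell too, with 1638 and 1758 normalized counts in KO libraries and 2768 and 2444 in WT libraries (1.53-fold lower, FDR 0.00337).

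Cpt1b encodes the muscle form of the outer-membrane transferase, the step inhibited by malonyl-CoA, and its value is uncertain. It had 16.3 and 19.6 normalized counts in KO libraries, against 37.9 and 25.5 in WT libraries (log2 ratio -0.82, FDR 0.729). Every other member was at 167 normalized counts or more in every library. In GENCODE M21, 81.4% of the exon bases of Cpt1b (chr15:89416405-89425862) are shared on the same strand with a read-through gene that the table does not list. The neighbouring Chkb (chr15:89426349-89429927), with which that transcript is joined, was also low, with authors' means of 12.6 in KO and 6.12 in WT. How reads shared by these transcripts were counted is not stated, so the level of Cpt1b is left as uncertain. The liver form, Cpt1a, had 943 and 896 normalized counts in KO libraries and 1320 and 905 in WT libraries, and its FDR was 0.878.

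Malonyl-CoA and acyl-CoA breakdown held 2 genes, of which Mlycd fell. Mlycd (chr8:119394892-119411088), the decarboxylase that removes malonyl-CoA, had 1671 and 1747 normalized counts in KO libraries, against 2578 and 2328 in WT libraries (1.44-fold lower, FDR 0.0243). Acacb, which makes malonyl-CoA at the mitochondrial surface and is not among the 33, fell as well. Its values were 4570 and 3704 normalized counts in KO libraries and 7826 and 6435 in WT libraries (1.72-fold lower, FDR 0.0143). Acot2 (chr12:83987861-83993875), a mitochondrial acyl-CoA thioesterase, had 189 and 167 normalized counts in KO libraries and 362 and 236 in WT libraries, which did not pass (log2 ratio -0.75, FDR 0.467; -0.41 without WT library 1). It has a near-identical neighbour, Acot1, listed at 24.5 and 20.6 normalized counts in KO libraries and 18 and 18.1 in WT libraries, so how reads were split between the pair is uncertain.

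All 4 long-chain oxidation genes fell, with a median log2 ratio of -0.78. Acadvl (chr11:70010183-70015428), the very long-chain acyl-CoA dehydrogenase that opens the cycle at the inner membrane, had 7622 and 7146 normalized counts in KO libraries, against 13386 and 13367 in WT libraries. It fell 1.81-fold (log2 ratio -0.86, authors' FDR 6.26e-07; limma SE 0.129, adjusted p 0.0453). In GENCODE M21, Acadvl shares 42.9% of its exon bases with Dvl2 on the opposite strand, and no source used here says whether the counting was stranded. Acadl (chr1:66830839-66863309), the long-chain acyl-CoA dehydrogenase, had 5554 and 5863 normalized counts in KO libraries, against 10011 and 9223 in WT libraries (1.68-fold lower, FDR 2.85e-05). In both dehydrogenases the KO libraries were well below the WT libraries, with little spread inside a genotype.

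Hadha and Hadhb encode the alpha and beta chains of the mitochondrial trifunctional protein, which carries out the remaining steps on long chains. Hadha (chr5:30118304-30154980) had 5858 and 5282 normalized counts in KO libraries, against 10096 and 9356 in WT libraries (1.75-fold lower, FDR 6e-06). Hadhb (chr5:30155253-30184593) had 6766 and 6515 normalized counts in KO libraries, against 10895 and 10401 in WT libraries (1.6-fold lower, FDR 0.000289). Both chains were lower in both KO libraries, with a limma adjusted p of 0.0464 for Hadha and 0.0595 for Hadhb. The ratio of Hadha to Hadhb counts was 0.866 and 0.811 in KO libraries and 0.927 and 0.899 in WT libraries, so it was slightly lower in KO, without a test.

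Both genes lie head to head, 272 bases apart by the table's coordinates, and the sequence between their first exons in GENCODE M21 is shown because the pair moved together. It is the 85 bases of chr5:30155163-30155247, plus strand (RefSeq promoter table, GRCm38.p6), with Hadha to its left and Hadhb to its right. Capitals mark GGGCGG, the GC box.

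Hadha-Hadhb: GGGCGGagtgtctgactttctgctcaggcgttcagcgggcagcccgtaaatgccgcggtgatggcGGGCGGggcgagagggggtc

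The upstream windows of Acadvl, of Acadm (the medium-chain dehydrogenase), of Ucp3 and of Plin5 are shown because all 4 genes fell and each window holds AGGTCA, the half-site of nuclear receptors such as PPAR and ERR. Capitals mark it, read on either strand, so in Acadm it appears as its reverse complement. Each is printed on the strand of its gene and leaves out bases that GENCODE M21 places in an exon: chr11:70015429-70015678 (minus) for Acadvl, chr3:153944644-153944893 (minus) for Acadm, chr7:100472741-100472989 (plus) for Ucp3 and chr17:56117597-56117798 (minus) for Plin5.

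Acadvl: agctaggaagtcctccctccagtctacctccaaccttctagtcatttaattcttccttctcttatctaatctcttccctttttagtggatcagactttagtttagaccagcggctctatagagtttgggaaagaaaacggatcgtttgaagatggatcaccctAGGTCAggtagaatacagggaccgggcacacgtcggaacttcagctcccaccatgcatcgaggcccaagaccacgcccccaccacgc

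Acadm: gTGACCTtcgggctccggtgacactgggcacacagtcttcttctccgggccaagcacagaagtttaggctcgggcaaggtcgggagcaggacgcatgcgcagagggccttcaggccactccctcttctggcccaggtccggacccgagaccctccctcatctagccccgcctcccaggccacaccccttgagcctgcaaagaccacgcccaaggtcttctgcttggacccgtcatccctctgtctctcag

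Ucp3: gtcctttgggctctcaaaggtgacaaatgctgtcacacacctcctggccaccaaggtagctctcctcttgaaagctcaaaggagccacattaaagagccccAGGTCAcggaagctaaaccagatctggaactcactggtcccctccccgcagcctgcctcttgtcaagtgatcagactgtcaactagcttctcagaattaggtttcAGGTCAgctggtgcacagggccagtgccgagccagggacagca

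Plin5: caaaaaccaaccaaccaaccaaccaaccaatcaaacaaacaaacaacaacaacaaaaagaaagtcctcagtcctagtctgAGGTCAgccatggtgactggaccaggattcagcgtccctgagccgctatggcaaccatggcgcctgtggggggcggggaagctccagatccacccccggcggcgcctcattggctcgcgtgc

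A gene with more than 1 start in the RefSeq promoter table was counted if the 250 bases before any start held the sequence. AGGTCA was present in 6 of the 27 members with an entry there (22.2%). The share was 15.8% over all 27025 genes there and 13% over those also listed in the deposited table. The other holders were Cd36 and Echs1, which did not pass the FDR. GGGCGG was present in 18 of 27 members (66.7%), against 35.4% of all genes and 61.9% of the listed ones, and CCAAT in 11 of 27 (40.7%), against 37.5% and 39.8%. The longer ERR site TCAAGGTCA contains AGGTCA, and DR1 is a direct repeat of AGGTCA with 1 free base between. Neither was in any window of these 27 members (0.422% and 0.0407% of all genes). Both strands were searched, and a match describes the letters only.

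Of the medium- and short-chain genes 3 of 5 fell, and the median log2 ratio was -0.52. Acadm (chr3:153922353-153944643) had 5261 and 5192 normalized counts in KO libraries, against 8513 and 8529 in WT libraries (1.63-fold lower, FDR 0.000152). Acaa2, the thiolase that ends each cycle on shorter chains, had 3795 and 4061 normalized counts in KO libraries, against 6493 and 7006 in WT libraries (1.72-fold lower, FDR 1.72e-05). Hadh (chr3:131233420-131272101), the 3-hydroxyacyl-CoA dehydrogenase of shorter chains, had 4045 and 4523 normalized counts in KO libraries, against 5857 and 6420 in WT libraries (1.43-fold lower, FDR 0.0151). In all 3 the groups did not overlap, and Hadh was not called by limma (adjusted p 0.0914). Acads (chr5:115110299-115119346), the short-chain dehydrogenase, narrowly missed the threshold, with 2158 and 2226 normalized counts in KO libraries and 2872 and 3180 in WT libraries (log2 ratio -0.46, FDR 0.0583). Echs1 (chr7:140105723-140116423), the short-chain enoyl-CoA hydratase, had 3073 and 2718 normalized counts in KO libraries and 3544 and 4176 in WT libraries (log2 ratio -0.41, FDR 0.179).

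By chain length, the long-chain ratios ran from -0.86 to -0.68, and the medium- and short-chain ratios ran from -0.78 to -0.41. The ranges overlapped, since Acaa2 and Acadm lay among the long-chain genes. The difference between the chain-length groups was not tested, because genes measured in the same libraries are not replicates. Over all 13 oxidation genes, auxiliary enzymes included, 10 fell and the median log2 ratio was -0.68.

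The auxiliary enzymes prepare unsaturated fatty acids for the cycle by moving or reducing double bonds, and 3 of 4 fell. Eci1 (chr17:24426683-24439316), the mitochondrial enoyl-CoA delta isomerase, had 2006 and 2100 normalized counts in KO libraries, against 4058 and 3822 in WT libraries. At 1.92-fold lower (log2 ratio -0.94, FDR 9.4e-08; limma SE 0.103, adjusted p 0.0199) this was the lowest ratio of the 33 genes. Its relative Eci2 (chr13:34977748-34994144), which also acts in peroxisomes, had 1699 and 1760 normalized counts in KO libraries and 2332 and 2168 in WT libraries and did not pass (log2 ratio -0.38, FDR 0.199). Decr1 (chr4:15917240-15945507), the dienoyl-CoA reductase, had 2571 and 2447 normalized counts in KO libraries, against 3668 and 3756 in WT libraries (1.48-fold lower, FDR 0.00881). Ech1 (chr7:28825338-28832239), the dienoyl-CoA isomerase, had 4166 and 3985 normalized counts in KO libraries, against 5986 and 6344 in WT libraries (1.51-fold lower, FDR 0.00332). The genotypes did not overlap in any of the 4.

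Electron transfer from the acyl-CoA dehydrogenases was lower at 1 of 3 genes. Etfdh (chr3:79603788-79628767), the oxidoreductase that passes electrons to ubiquinone, had 3021 and 2571 normalized counts in KO libraries, against 4862 and 4546 in WT libraries (1.68-fold lower, FDR 8.07e-05). Etfa (chr9:55454436-55512243), the alpha chain of the flavoprotein, had 4306 and 4683 normalized counts in KO libraries and 6096 and 6114 in WT libraries, just outside the threshold (log2 ratio -0.44, FDR 0.0593). Etfb (chr7:43444072-43457800), the beta chain, had 4044 and 4514 normalized counts in KO libraries and 5279 and 5949 in WT libraries (log2 ratio -0.39, FDR 0.136). Etfb shares 58.2% of its exon bases on the same strand with unlisted transcripts in GENCODE M21, so its count is uncertain. The ratio of Etfdh to Etfa counts was 0.702 and 0.549 in KO libraries, below the 0.798 and 0.743 in WT libraries. The ratio of Etfb to Etfa overlapped, at 0.939 and 0.964 in KO libraries and 0.866 and 0.973 in WT libraries.

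Lipolysis was mixed, with 2 of 6 genes lower at the authors' FDR and 0 by limma. Pnpla2 (chr7:141455188-141460743), the adipose triglyceride lipase that starts triglyceride breakdown, had 4811 and 3667 normalized counts in KO libraries, against 8375 and 7098 in WT libraries (1.83-fold lower, log2 ratio -0.87, FDR 0.00373). Plin5 (chr17:56111601-56117548), a droplet coat protein that tethers droplets to mitochondria, had 488 and 464 normalized counts in KO libraries, against 691 and 779 in WT libraries (1.55-fold lower, FDR 0.0257). For both, each KO library was below each WT library. The Pnpla2 libraries of a genotype differed, with a ratio of library 1 to library 2 of 1.31 in KO and 1.18 in WT.

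The lipases after the first step did not pass. Lipe (chr7:25379527-25395987), hormone-sensitive lipase, had 1091 and 694 normalized counts in KO libraries and 1160 and 1119 in WT libraries (log2 ratio -0.35, FDR 0.813). Its log2 ratio was -0.72 without KO library 1, where limma called it lower (adjusted p 0.0328), and -0.06 without KO library 2, so the value rests on which KO library is used. Mgll (chr6:88724412-88828360), the monoglyceride lipase, had 4321 and 3754 normalized counts in KO libraries and 4349 and 3785 in WT libraries (log2 ratio -0.01, FDR 1). The Mgll values of the genotypes were interleaved.

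Lpl (chr8:68880555-68906932), the lipase that frees fatty acids from lipoproteins at the capillary wall, had 12554 and 11406 normalized counts in KO libraries and 12682 and 13086 in WT libraries. Its log2 ratio was -0.10 (FDR 0.936). Angptl4 (chr17:33774900-33781575), a secreted inhibitor of LPL, had 557 and 379 normalized counts in KO libraries and 840 and 525 in WT libraries, and the groups overlapped (log2 ratio -0.54, FDR 0.81). Leaving out 1 library put the Angptl4 ratio at -0.85 (KO library 1), -0.29 (KO library 2), -0.17 (WT library 1) or -0.84 (WT library 2). Gpihbp1, which anchors LPL on endothelium and is not among the 33, had 2464 and 2572 normalized counts in KO libraries and 2794 and 2864 in WT libraries (log2 ratio -0.17, FDR 0.818).

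Adipocyte RNA varied between the libraries, and fat cells also express several of the lipolysis genes. KO library 1 held the highest value for 11 of the 12 adipocyte markers. Adipoq, the adipocyte hormone adiponectin, had 1089 and 306 normalized counts in KO libraries and 265 and 284 in WT libraries. The median of the 12 markers relative to the WT mean was 1.68 (log2) in KO library 1, while KO library 2 stood at -0.29. None of the 12 passed the FDR, 0 had an unadjusted p under 0.05 by the authors' test or by limma, and none was at 0 in a library. Their summed level was 54675 and 47077 in KO libraries and 49512 and 60320 in WT libraries. Car3 and Fabp4 made up most of that sum. Car3 had 30183 and 30415 normalized counts in KO libraries and 32426 and 41768 in WT libraries. Fabp4 had 16581 and 14225 in KO libraries and 14723 and 15892 in WT libraries. Relative to the WT mean, the median of the 6 lipolysis genes was -0.18 (log2) in KO library 1 and -0.69 in KO library 2. That of the long-chain genes was -0.76 and -0.80. Without KO library 1, Pnpla2 had a log2 ratio of -1.08 and Plin5 of -0.66, and without KO library 2 these were -0.69 and -0.59. All 6 lipolysis genes were lower in KO library 2 than in KO library 1. The part of adipocyte RNA in the lipolysis values was not tested.

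**Figure D2:**
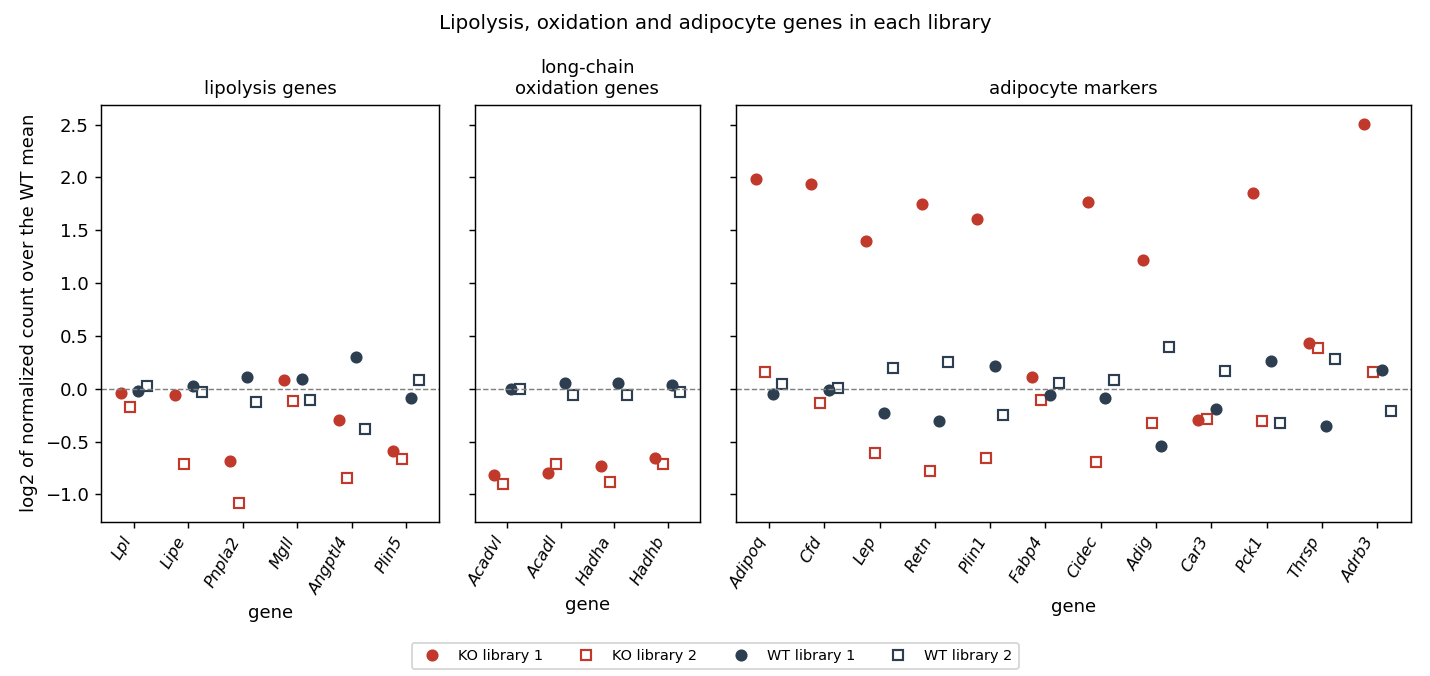
Points give the log2 of each library's normalized count over the WT mean, by gene, for 6 lipolysis genes (left), 4 long-chain oxidation genes (middle) and 12 adipocyte markers (right); red is KO, dark blue WT, circles are library 1 and squares library 2. KO library 1 stands high for most adipocyte markers, and the long-chain genes are low in both KO libraries. Each of the 6 lipolysis genes is lowest in KO library 2, and so are Acadvl, Hadha and Hadhb.

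The last 2 members both fell. Ucp3 (chr7:100472991-100486432), the muscle uncoupling protein that is induced when fatty acid supply is high, had 2498 and 2621 normalized counts in KO libraries, against 5017 and 3933 in WT libraries (1.75-fold lower, FDR 0.0181). Hsdl2 (chr4:59581563-59618694), a hydroxysteroid dehydrogenase-like protein of peroxisomes and mitochondria, had 1803 and 1755 normalized counts in KO libraries, against 3165 and 2791 in WT libraries (1.67-fold lower, FDR 0.000144). In each the KO libraries were nearly equal and the WT libraries spread more widely.

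Levels were compared between genes as normalized counts per kilobase of the principal GENCODE M21 transcript. Fabp3 was the most abundant member by this measure, with means of 11493 in KO and 17017 in WT. Etfb was the next, with 4792 in KO and 6286 in WT, but its count is uncertain, as given above. In KO, Cd36 followed at 3965 and Acadvl at 3406, while in WT the order was turned round, with Cd36 at 5211 and Acadvl at 6170. Among the acyl-CoA dehydrogenases the mean level per kilobase was 3406 in KO and 6170 in WT for Acadvl, 2979 and 5019 for Acadl, 2553 and 4163 for Acadm, and 1172 and 1618 for Acads. Pnpla2 had 2356 in KO and 4301 in WT, and Lpl, whose ratio was near 0, had 2911 and 3131. Neighbours in the order lie close, as with Hadhb at 3243 and Etfa at 3229 in KO, and their order was not tested.

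**Figure D3:**
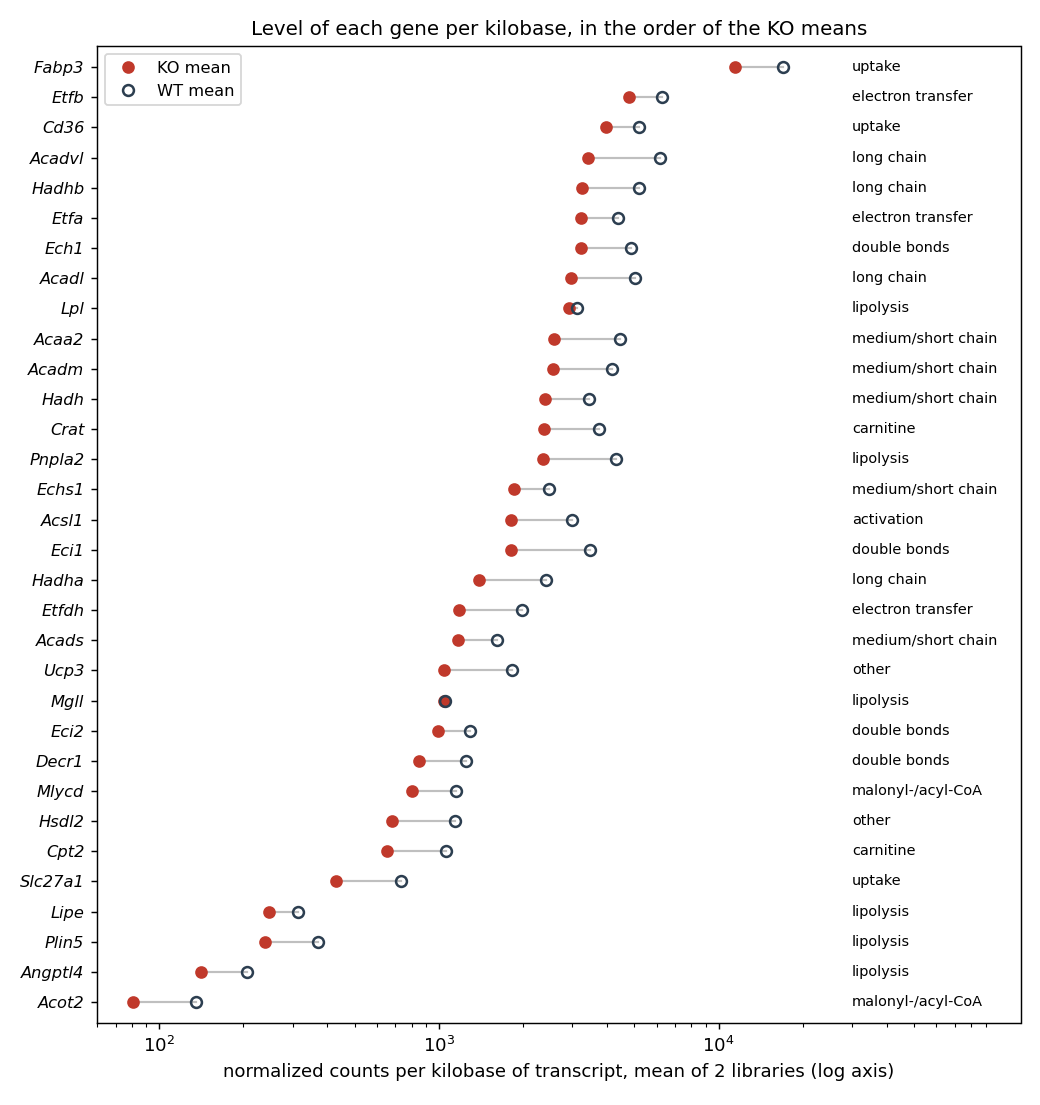
Filled red points are the KO mean and open dark blue points the WT mean of 2 libraries, in normalized counts per kilobase of transcript on a log axis, with genes in the order of their KO means and the role at the right; Cpt1b is left out because its count is uncertain. The gap between the points is widest for Eci1, Pnpla2 and Acadvl and closes for Mgll and Lpl, and Fabp3 stands above all other genes. Etfb is shown although its count is uncertain too.

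The rest of the pathway was covered by 7 further lists. Of 130 further genes, 125 were listed, 12 fell at the authors' FDR and none rose. Their median log2 ratio was -0.19, and 40 had an unadjusted p under 0.05 with a lower value in KO, against none with a higher one (in the whole table, 6.06% and 5.08%). By limma 1 of the 125 was lower at an adjusted p under 0.05, against 0.463% of all genes fitted. Other uptake, binding and activation genes held no call among 20, with a median of -0.02 and 2 genes at an unadjusted p under 0.05 in the deposited table. Dbi, the acyl-CoA binding protein, had 2849 and 3064 normalized counts in KO libraries and 3161 and 3512 in WT libraries (FDR 0.798).

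The next lists hold mitochondrial genes around the cycle. Among the other carnitine genes 1 of 9 fell, the carrier Slc25a20 given above, and the list's median was -0.04. Of 19 other mitochondrial and thioesterase genes 3 fell, with a median of -0.33. These were Acat1, the acetoacetyl-CoA thiolase (log2 ratio -0.47, FDR 0.0433), Acot13, a mitochondrial thioesterase (-0.58, FDR 0.0228), and Mut, the methylmalonyl-CoA mutase that handles odd chains (-0.52, FDR 0.0399). None of the 8 other acyl-CoA dehydrogenases passed, with a median of -0.30 and 3 at an unadjusted p under 0.05. Most of those act on branched-chain amino acids or have no settled substrate in muscle.

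Bdh1, the ketone body enzyme 3-hydroxybutyrate dehydrogenase, had the lowest ratio of the listed pathway genes and is the 1 limma call among them. It had 10.9 and 18.6 normalized counts in KO libraries, against 343 and 115 in WT libraries (log2 ratio -3.96, limma adjusted p 0.0471). The authors' FDR was 0.222, and the WT libraries lay far apart. It was singled out after its values were seen.

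Of 16 listed peroxisomal oxidation genes 2 fell, with a median of -0.26. Phyh, which starts alpha-oxidation of phytanic acid, had 3084 and 3686 normalized counts in KO libraries, against 5344 and 5307 in WT libraries (1.57-fold lower, FDR 0.000762). Of 22 other lipid droplet and lipase genes 3 fell, with a median of -0.14. They were Dgat2, which makes triglyceride (log2 ratio -0.76, FDR 0.0328), Lpin1, a phosphatidate phosphatase and coactivator (-0.62, FDR 0.00617), and Fitm2, which takes part in droplet formation (-0.54, FDR 0.0372).

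**Figure D4:**
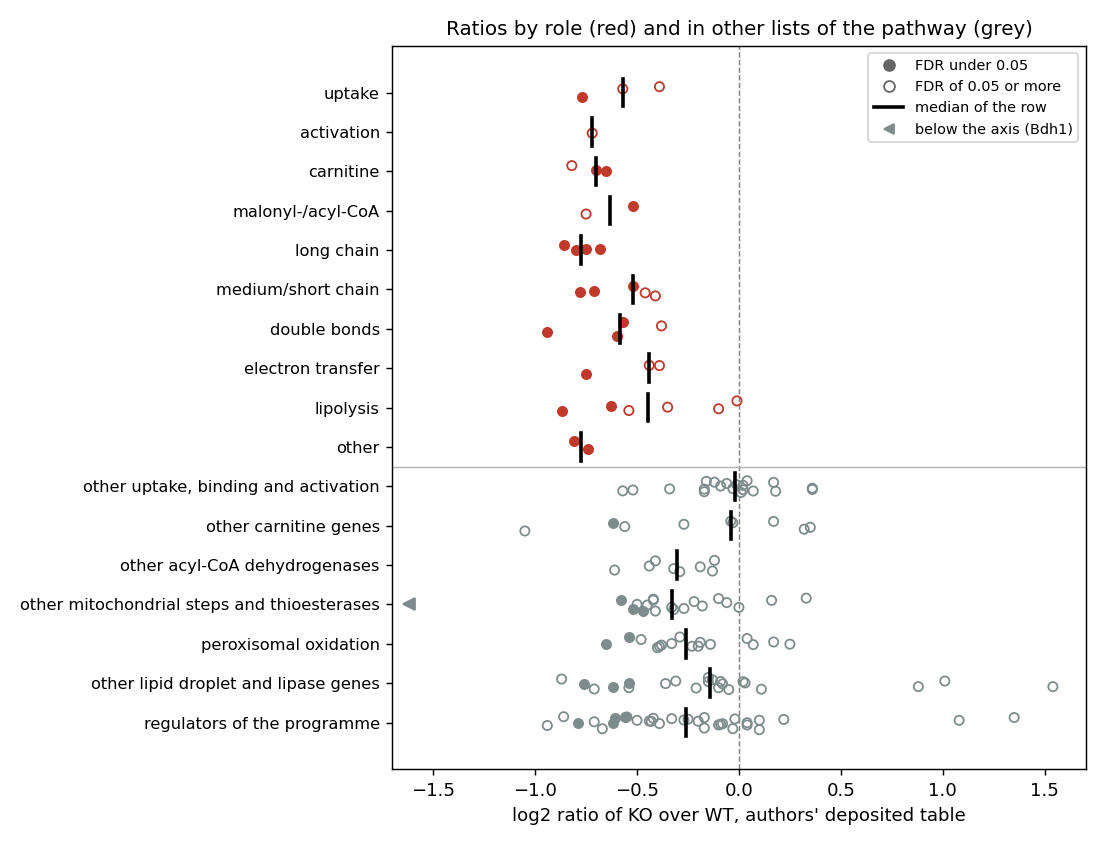
Each point is the authors' log2 ratio of KO over WT for 1 gene, by role for the 33 genes (red) and by list for the other listed pathway genes (grey); filled points have an FDR under 0.05, black bars are medians, and the triangle is Bdh1, whose ratio of -3.96 lies below the axis. The red medians lie between -0.78 and -0.44 and the grey ones between -0.33 and -0.02.

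Regulators of the programme showed 4 calls among 32 genes, with a median log2 ratio of -0.26. Perm1, a muscle regulator of mitochondrial genes, had 4503 and 3811 normalized counts in KO libraries, against 6628 and 6035 in WT libraries (1.52-fold lower, FDR 0.00279). Pdk2, a kinase that restrains pyruvate dehydrogenase, had 7904 and 8066 normalized counts in KO libraries, against 11614 and 11859 in WT libraries (1.47-fold lower, FDR 0.0061). The others were Acacb, given above, and Lpin1, which stands in both lists. None of Ppara, Ppard, Pparg, Ppargc1a and Ppargc1b passed. Ppara had 488 and 421 normalized counts in KO libraries and 587 and 698 in WT libraries (FDR 0.162). Ppargc1a, which encodes PGC-1alpha, had 1044 and 726 normalized counts in KO libraries and 1346 and 1242 in WT libraries (FDR 0.253). Esrra, the nuclear receptor ERRalpha, had 1994 and 2072 normalized counts in KO libraries and 2796 and 2711 in WT libraries (FDR 0.0882). Apart from the calls, the regulators given here were named after their values were seen.

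The authors' deposited table of upstream regulators gave no predicted state for PPARA, PPARD, PPARG or PPARGC1A. The bias-corrected z-score and the uncorrected activation z-score were -1.336 and -0.846 for PPARA, -1.230 and -0.518 for PPARD, -0.789 and -0.107 for PPARG, and -0.441 and 0.513 for PPARGC1A, where their signs differ. Its gene list held ratios past an absolute log value of 0.95, which 0 of the 33 genes reached, and 0 of the 33 were among the targets it counts for these regulators.

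Fibre-type genes differed in the same libraries. Myh1, the myosin heavy chain of type IIx fibres, had 117179 and 110753 normalized counts in KO libraries, against 252508 and 246042 in WT libraries (2.19-fold lower, FDR 8.08e-13). Myh4, the heavy chain of type IIb fibres, was 1.61-fold higher, with 444884 and 373640 normalized counts in KO libraries, against 232372 and 277492 in WT libraries (FDR 0.0113). Of the 10 fibre markers, Mybpc2 also rose (FDR 0.0464) and the other 7 did not pass. None of the 8 slow-fibre markers passed, and 6 of 8 had a ratio above 0, with a median of 0.49. At an unadjusted p under 0.05, 2 were higher in the deposited table, and by limma 4 were higher and 1 lower. Over all genes at that p, 743 of 14617 were higher in the deposited table. By limma 1346 of 14053 were higher and 1408 lower. Tnnc1, slow troponin C, had 442 and 228 normalized counts in KO libraries and 155 and 132 in WT libraries, and Myoz2 had 1939 and 1637 in KO libraries and 4073 and 2360 in WT libraries. The summed slow-fibre level was 11300 and 8975 in KO libraries and 11709 and 8375 in WT libraries. The 6 Schwann cell markers had summed levels of 24174 and 11678 in KO libraries and 8270 and 8724 in WT libraries, and none passed the FDR, with 1 higher at an unadjusted p under 0.05 in the deposited table and 5 by limma. Of 7 fibro-adipogenic progenitor markers Col3a1, a fibrillar collagen, rose (150433 and 120058 normalized counts in KO libraries, 77992 and 61394 in WT libraries, FDR 0.00771), and the other 6 did not pass. Their summed level was 298605 and 224705 in KO libraries and 193679 and 159909 in WT libraries, with no marker at 0. Of the 6 heart muscle markers 3 were listed, and Myl4, the embryonic and atrial myosin light chain, rose (314 and 372 normalized counts in KO libraries, 147 and 182 in WT libraries, FDR 0.000624). The part of fibre type, connective tissue or nerve RNA in the values of the 33 genes was not tested.

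The 10 genes outside all lists most like the members that fell were chosen as the lowest FDRs among genes whose mean reached 1000 and whose log2 ratio lay inside the range of those members. Among them were Tmem65, Tcap, Cyb5b, Ldhb, Ogdh, Gys1, Mdh1, Eif2s3x and Pdpr. In all, 108 genes inside these limits had an FDR under 0.05. Ogdh, a subunit of the oxoglutarate dehydrogenase complex, had 17443 and 15710 normalized counts in KO libraries, against 29245 and 26468 in WT libraries (1.68-fold lower, FDR 2.64e-05). Gys1, muscle glycogen synthase, had 10587 and 9468 normalized counts in KO libraries, against 19467 and 16631 in WT libraries (1.8-fold lower, FDR 2.94e-05). Eif2s3x is X-linked, on the chromosome whose Xist RNA differed between the genotypes.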

How the data were processed

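RNA was sequenced from tibialis anterior muscle of KO and WT mice, 3 of each genotype per the labels. The submitters' processing notes name the build mm10. No source used here gives the aligner, the counter or its use of strand. Per the file headers, the authors deposited 1 mean signal (normalized read count) per genotype, their log2 ratio, and a p-value with its FDR from DESeq, per the table's name. They also deposited activation scores (z-scores) of upstream regulators, per the file headers.

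When counts are divided by library factors and averaged, each library adds a whole number of its own fixed step. In the 300 lowest values of a column, 2 steps explained 100% and 1 step at most 3.33%, so counts of 2 libraries per genotype were recovered, uniquely for all 14617 genes (relative tolerance 1e-13). The recovered factors were 1.10132 and 0.969712 in KO and 1.00269 and 0.940389 in WT. The libraries of a genotype differed beyond sampling noise (chi-square per degree of freedom 32.5 in KO and 35.7 in WT). Which mice they came from is not stated.

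A test on counts per sample was planned. Because the table holds means, the authors' FDR under 0.05 is the main test. The second fit, planned in case libraries could be recovered, was limma 3.58.1 (R 4.3.3; trend, robust, two-sided, Benjamini-Hochberg) on log2(normalized count + 1), for 14053 genes with a mean of at least 10, with 2 residual degrees of freedom; fold changes of low genes are understated on this scale. Both steps were tested on simulated data. An exact permutation test of 2 against 2 libraries cannot go below p = 0.333 and was not used.

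The members and all lists were chosen with earlier results of these data known. All members are named; of other pathway lists, the genes past the FDR are named. Of the genes counted, 2 are not reported here by name. Coordinates are mm10, counted from 1. Overlaps, lengths and exons came from GENCODE M21 and sequences from the RefSeq promoter table (27 of 33 members matched). Alternatives covered scaling, pseudocount, filter, moderation, adjustment and leaving out each library.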

Additional observations from a re-analysis of the deposited data

How the results depend on the processing

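The count of 19 members past the FDR was 10 with limma, and it stayed within 1.5 times when the deposited p-values were adjusted over autosomal genes or over genes whose mean reached 50. The limma count of 10 was 4 with total counts, 6 with the upper quartile, 5 with totals without the 20 most abundant genes, 3 with quantile normalization, 1 without robust moderation and 0 to 11 when 1 library was left out. For the other pathway genes, the 12 calls were 1 by limma. In that fit 47 were lower and 1 higher at an unadjusted p under 0.05, against 1408 and 1346 of all 14053 genes. The count was also 1 with the upper quartile, TMM, totals without the 20 most abundant genes, quantile normalization or either pseudocount. Total counts or a fit without robust moderation called 0 of the other pathway genes (42 and 48 lower at that unadjusted p). Leaving out 1 library gave them 0 to 12. The cause was not tested.

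Every median log2 ratio stayed below 0 (121 of 121 settings, over all members and by role). Without the 20 most abundant genes in the totals, the median of all genes moved to 0.12, limma called 50 genes lower and 156 higher in place of 65 and 60, and medians were -0.54 (all members), -0.46 (uptake), -0.58 (carnitine), -0.67 (long chain), -0.41 (medium and short chain), -0.47 (double bonds) and -0.33 (electron transfer). With quantile normalization (42 genes lower and 50 higher) they were -0.43 (uptake), -0.63 (carnitine), -0.71 (long chain), -0.43 (medium and short chain), -0.49 (double bonds) and -0.34 (electron transfer). Total counts (38 lower and 62 higher) gave -0.64 (carnitine), -0.73 (long chain) and -0.53 (double bonds), and the upper quartile gave -0.54 (double bonds). Leaving out 1 library gave -0.71 to -0.58 (all members), -0.69 to -0.43 (uptake), -0.73 to -0.61 (carnitine), -0.81 to -0.43 (malonyl-CoA and acyl-CoA), -0.83 to -0.72 (long chain), -0.60 to -0.45 (medium and short chain), -0.50 to -0.38 (electron transfer), -0.69 to -0.18 (lipolysis) and -0.90 to -0.63 (other).

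Of 494 settings over single members 7 changed sign, none in a called member. Mgll was 0.04 with total counts, 0.03 with the upper quartile, 0.10 without the 20 most abundant genes or with quantile normalization, and -0.11 to 0.09 when 1 library was left out. Lpl was 0.04 with quantile normalization and 0.00 without the 20 most abundant genes, which was not counted as a change of sign. The planned count model on the recovered counts was not run; limma was fitted to them in its place. No paired analysis was possible because the recovered libraries carry no mouse number. With 2 libraries per genotype, no group was large enough for a test of single outlying libraries.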
